A study of Mus musculus with 10 samples.

Results

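Complement is a set of proteins that mark cells and debris for removal and open the membranes of microbes. Its messenger RNA was followed here through 9 genes, *C1qa*, *C1qb*, *C1qc*, *C2*, *C3*, *C4b*, *Cfb*, *Cfp* and *C3ar1*. The members were taken as every non-control probe of the array that carries 1 of these gene names, which gave 10 probes of the 55681 on the array and 9 of its 34797 gene symbols. The tissue was epididymal white adipose tissue (eWAT), the fat pad beside the epididymis, of 10 male C57BL/6JOlaHsd mice. All 10 belonged to 1 group and are named by the replicate number of their labels. They were 9 weeks old at the start, received a low fat diet for 3 weeks and a high-fat diet (HFD) for 12 weeks, and were housed at 29°C, a temperature at which a mouse spends no extra energy on staying warm. They then received desferrioxamine (DFO), an iron chelator, at 100 mg/kg once a day for 5 days, and were killed on day 6 after 2 h without food. Each mouse was hybridized in Cy5 on its own array against 1 Cy3-labelled reference pool. The pool joined samples of the whole wider study, control mice and part of the RNA of these mice included, so it stands for no control group. The values therefore compare mice with each other and say nothing on the effect of DFO.

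Complement can start in several ways. C1q, built from the chains encoded by *C1qa*, *C1qb* and *C1qc*, binds antibody, dying cells and other surfaces. The proteases bound to it cut C4 (*C4b*) and C2 (*C2*), whose fragments together cut C3, the central protein of the cascade. In the alternative pathway the C3-cutting enzyme is made from C3 and factor B (*Cfb*), which factor D (*Cfd*) activates, and properdin (*Cfp*) stabilizes it. C3a, a fragment of C3, acts on cells that carry its receptor (*C3ar1*). C1q is made mainly by macrophages and related cells, whereas most other components in blood come from the liver. Adipose tissue also makes components of its own, of which factor D is the one secreted in large amounts by adipocytes and known as adipsin.

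An array probe is a strand of 60 bases, and the spots of a probe brighten with the amount of labelled RNA bound to it. By the annotation in the files, which uses the mouse build mm9, the C1q probes lie together on chromosome 4 minus strand, *C1qb* at chr4:136436578-136436637, *C1qc* at chr4:136445766-136445825 and *C1qa* at chr4:136452409-136452468, a stretch of 15.9 kb. The probes of *C4b* (chr17:34865328-34865387), *Cfb* (chr17:34993502-34993858) and *C2* (chr17:34999575-34999634) lie within 134 kb of each other on chromosome 17, also on the minus strand. The *Cfb* probe spans 357 bases of the genome with its 60 bases, so it crosses at least 1 intron. The probe named *C4b* is also listed for the transcript of *C4a*, its near-identical neighbour, and these genes cannot be told apart here. *C3* has 2 probes, at chr17:57343416-57343475 and chr17:57343678-57343737. *Cfp* was measured at chrX:20502742-20502801 and *C3ar1* at chr6:122798222-122798281. Shown here are probes with a reading frame free of stop codons, to let a reader see what the array binds for the chains of C1q, for C3 and for the alternative pathway. For *C3* the probe at chr17:57343678-57343737 is shown, the dimmer of the 2. Results on *C3* come from the brighter probe unless said otherwise.
C1qa: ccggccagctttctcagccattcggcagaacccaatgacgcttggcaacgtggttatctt
C1qb: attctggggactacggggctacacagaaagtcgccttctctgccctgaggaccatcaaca
C3: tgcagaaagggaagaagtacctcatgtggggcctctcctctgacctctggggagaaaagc
Cfb: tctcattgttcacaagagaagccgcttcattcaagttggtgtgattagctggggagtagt
Cfp: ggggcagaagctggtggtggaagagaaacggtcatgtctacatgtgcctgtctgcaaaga

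Values are given as the log2 ratio of Cy5 over Cy3, background-corrected and normalized within each array, so that 1 unit is a doubling and 0 is the level of the pool. The zero is the pool's and also holds any dye bias of a probe, since dyes were not swapped. Ratios were therefore compared between mice and not against 0, and the levels of different probes were not compared. All 10 member probes were well above background in both dyes on all 10 arrays, and no spot on any array was saturated. Cy5 signals of the members lay between 610 units for *C3ar1* and 166851 units for *C3*. The median Cy5 signal of all probes was 54.8 to 81.3 units an array. Before any single gene, the arrays themselves fell apart. On the first principal component of all expressed probes, which held 75.1% of the variance, mice 4, 5, 6 and 7 lay apart from mice 1, 2, 3, 8, 9 and 10, with a gap of 0.51 of the range. The labels give no difference between these mice. They are not groups of the study, so no test was run between them, and each relation is given over the 10 mice and over the 6 that lay together. Of all expressed probes with a value in every mouse, 39.2% did not overlap between the 4 mice and the 6.

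The macrophage list (14 marker genes, all expressed) and the adipocyte list (15, all expressed) moved with this split. The mean-centred log2 ratio of the macrophage list was 0.62 to 0.83 in mice 4 to 7 and -1.03 to 0.01 in the other mice. The adipocyte list was -1.46 to -0.61 in mice 4 to 7 and 0.31 to 0.98 in the other mice. The endothelium list, with 9 of 9 genes expressed, stood at -0.71 to -0.40 against 0.21 to 0.48, and the mesothelium list, with 11 of 12, at -0.98 to -0.55 against -0.02 to 0.83. The fibroblast list, with 12 of 12, was 0.07 to 0.35 in mice 4 to 7 and -0.33 to 0.04 in the others. Single markers went against their list, *Cd163* of the macrophage list with -0.28 to -0.11 against 0.15 to 0.60 and *Dpt* of the fibroblast list with -1.08 to -0.61 against -0.24 to 0.02. In the fibroblast list *Pdgfra*, *Col1a2*, *Fbn1*, *Thy1*, *Dcn* and *Pi16* overlapped, and in the macrophage list *Aif1* and *Fcgr1* did. Of these *Dcn* was -0.63 to -0.26 in mice 4 to 7 against -0.51 to 0.18, and *Pi16* -0.92 to -0.22 against -0.43 to 0.51. The lists of blood (-1.07 to -0.43 against -0.10 to 0.95), lymphocytes (-0.35 to -0.20 against 0.06 to 0.32) and dendritic cells (-0.33 to -0.12 against 0.04 to 0.45) separated the same mice, with 4 of 7, 7 of 8 and 5 of 7 genes expressed, whereas the neutrophil list, with 6 of 10, overlapped. Of 11 hepatocyte markers only 3 were expressed, and *Alb*, *Ttr*, *Fga*, *Fgb*, *F2*, *Apoh*, *Ambp* and *Cps1* were not. The mean of the 3 was 0.09 to 0.45 in mice 4 to 7 against -0.32 to -0.05. Of them *Ahsg* was 0.32 to 1.24 against -0.80 to -0.25, and *Apoa2* and *Tat* overlapped. The part of these cell types in the results was not tested. In bulk tissue, fewer cells of a type and less RNA per cell cannot be told apart.

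The members fell into 3 patterns over the mice, seen in the plot of the log2 ratio by mouse. *C1qa*, *C1qb*, *C1qc* and *C3ar1* were higher in mice 4 to 7 than in any other mouse. *C2*, *C3*, *C4b* and *Cfb* were lower in mice 4 to 7 than in any other mouse. *Cfp* overlapped between them. All 4 mice above the other 6 was found for 4 of 9 members and for 17.9% of all expressed probes, and all 4 below for 4 of 9 members and for 21.3% of all probes. The separation itself is thus common on these arrays. With each array centred on its median instead, *C2*, *C3* and *Cfb* overlapped and *Cfp* did not, nor did *Cfp* with the deposited values, and the medians kept their direction for all 9.

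**Figure D1:**
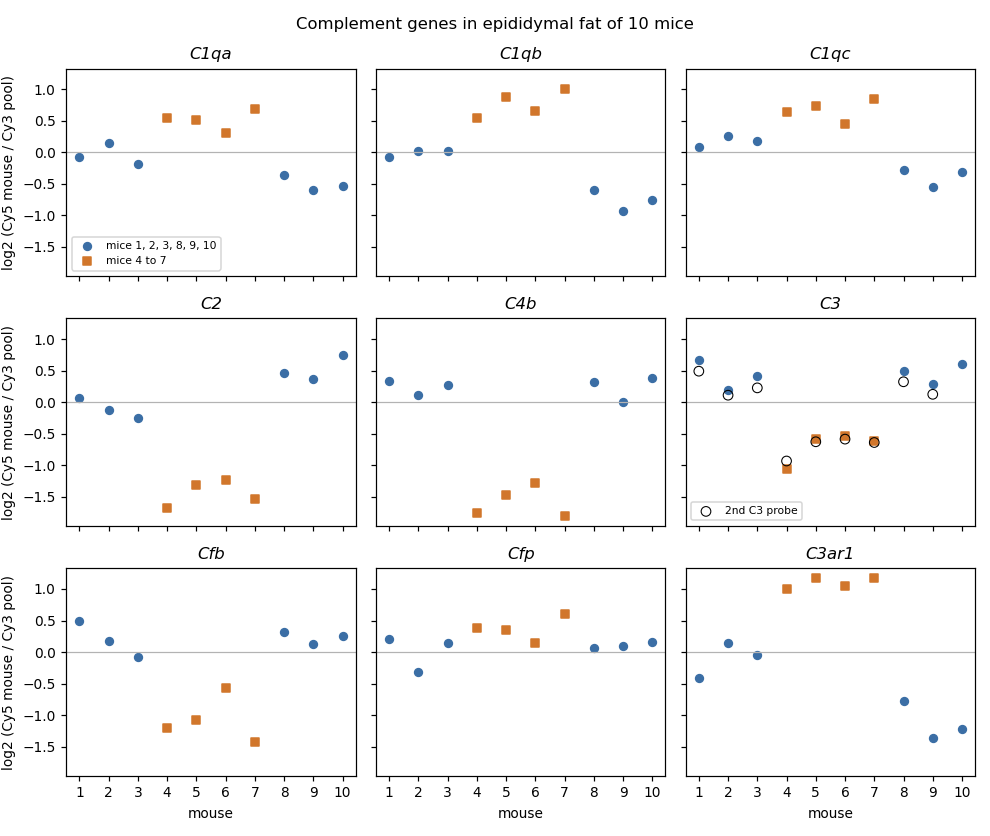
Log2 ratio of Cy5 (1 mouse) over Cy3 (the pool) of each complement gene, 1 point a mouse, with mice 4 to 7 as squares and the other 6 as circles; open circles in the *C3* panel are its other probe, which has no value in mouse 10. *C3ar1* and the C1q genes are highest in mice 4 to 7, whereas *C2*, *C4b*, *C3* and *Cfb* are lowest there.

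The chains of C1q moved together. *C1qa* was 0.55, 0.51, 0.31 and 0.68 in mice 4, 5, 6 and 7. In mice 1, 2, 3, 8, 9 and 10 it was -0.07, 0.14, -0.18, -0.37, -0.60 and -0.53. Every value of mice 4 to 7 was above every value of the other mice, and mice 8, 9 and 10 were the lowest. *C1qb* ran wider, with 0.54, 0.87, 0.66 and 1.00 in mice 4 to 7 and -0.08, 0.01, 0.02, -0.60, -0.93 and -0.76 in the other 6 in the same order. *C1qc* was 0.63, 0.74, 0.45 and 0.85 in mice 4 to 7 and 0.09, 0.25, 0.18, -0.27, -0.55 and -0.32 in the others. Mouse 7 was the highest and mouse 9 the lowest for all 3 chains. From lowest to highest mouse the difference was 2.43-fold for *C1qa*, 2.63-fold for *C1qc* and 3.82-fold for *C1qb*. *C1qc* was printed in 10 spots, and the SD between its spots on an array had a median of 0.053, against an SD of 0.47 between mice.

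After mean-centring, *C1qa* and *C1qc* differed by a root mean square of 0.085 over the 10 mice, the smallest difference of any pair of members. *C1qb* differed from *C1qc* by 0.22 and from *C1qa* by 0.25. Among the 6 mice that lay together the same differences were 0.10, 0.11 and 0.17. The C1q genes were less alike to *C3ar1*, with 0.32 for *C1qb* to 0.53 for *C1qa* over the 10 mice. *Cfp* was closer than *C3ar1* to *C1qa* (0.38) and to *C1qc* (0.38 against 0.52), but not to *C1qb* (0.56).

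*C4b* and *C2*, whose proteins form the C3-cutting enzyme of the classical pathway, were low in the mice with high C1q. *C4b* was -1.76, -1.48, -1.28 and -1.81 in mice 4, 5, 6 and 7. In mice 1, 2, 3, 8, 9 and 10 it was 0.34, 0.11, 0.28, 0.32, 0.01 and 0.38. The 6 mice lay within 0.37 of each other, well above all of mice 4 to 7. *C2* was -1.68, -1.31, -1.23 and -1.54 in mice 4 to 7, and 0.07, -0.12, -0.26, 0.46, 0.37 and 0.74 in the other mice. Unlike *C4b*, *C2* also spread among the 6 mice, over 1.00 log2 units, with mice 8, 9 and 10 above mice 1, 2 and 3. The range over all 10 mice was 4.55-fold for *C4b* and 5.36-fold for *C2*.

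*C3* was -1.07, -0.58, -0.54 and -0.61 in mice 4, 5, 6 and 7 and 0.67, 0.20, 0.41, 0.49, 0.29 and 0.60 in mice 1, 2, 3, 8, 9 and 10. Mouse 4 was the lowest, and mice 5, 6 and 7 lay close together. Its other probe read -0.93, -0.63, -0.59 and -0.64 in mice 4 to 7 and 0.49, 0.11, 0.23, 0.32 and 0.12 in mice 1, 2, 3, 8 and 9. Its value in mouse 10 was left out because the scanner software marked the spot as an outlier. The probes differed by -0.13 to 0.18 in the same mouse and gave the same split. The brighter probe was printed in 10 spots, with a median SD between spots of 0.061 against 0.62 between mice.

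*Cfb*, which encodes the protease of the alternative pathway, followed *C3* over the 10 mice more closely than any other member, with a root mean square difference of 0.24. Among the 6 mice *C4b* (0.084) and *Cfp* (0.11) were closer to *C3* than *Cfb* was (0.15). It was -1.20, -1.08, -0.57 and -1.43 in mice 4 to 7 and 0.49, 0.17, -0.07, 0.32, 0.13 and 0.26 in the other 6. Mouse 6 was the least low of the 4, as it was for *C2*, *C3* and *C4b*. *Cfp*, which encodes properdin, had the smallest spread of the members. It was 0.39, 0.35, 0.15 and 0.60 in mice 4 to 7 and 0.21, -0.31, 0.14, 0.07, 0.09 and 0.16 in the others. Mouse 6 lay among the 6 other mice, and the whole range was 1.87-fold, of which mouse 2 set the lower end.

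*C3ar1*, the receptor gene, had the widest range, 5.84-fold. It was 1.01, 1.17, 1.05 and 1.18 in mice 4 to 7. In mice 1, 2, 3, 8, 9 and 10 it was -0.41, 0.15, -0.05, -0.78, -1.37 and -1.21, so the 6 mice themselves spread over 1.52 log2 units. Mice 8, 9 and 10 were lowest, as for the C1q genes.

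Within-slide values were as follows. A slide holds 2 arrays, and only slides 2 and 4 held 1 mouse of each kind. On slide 2, mouse 4 exceeded mouse 3 by 0.73 for *C1qa*, 0.52 for *C1qb*, 0.45 for *C1qc* and 1.06 for *C3ar1*. On slide 4, mouse 7 exceeded mouse 8 by 1.04, 1.60, 1.12 and 1.96 for the same genes. The difference was -1.48 and -1.10 for *C3*, -2.04 and -2.14 for *C4b*, -1.42 and -2.003 for *C2* and -1.13 and -1.75 for *Cfb* on slides 2 and 4. None of these genes overlapped between mice 4 to 7 and the others, so the direction within a slide was fixed beforehand. It is therefore no check on the slide. For *Cfp*, which overlapped, mouse 4 exceeded mouse 3 by 0.24 and mouse 7 exceeded mouse 8 by 0.53. By limma's moderated F test over 5 slides, 0 of 9 members and 0 of 27718 probes differed between slides after Benjamini-Hochberg adjustment (0% called). At an unadjusted p under 0.05 there was 1 member, *C3ar1* (p = 0.0389), and 4.1% of all probes.

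The spread between mice was set against that of the pool, which was the same material on every array. The SD of the normalized log2 Cy5 signal over 10 arrays was 1.12 for *C3ar1*, 0.91 for *C2*, 0.86 for *C4b*, 0.71 for *C1qb* and *Cfb*, 0.56 for *C1qc*, 0.51 for *C1qa*, 0.48 for *C3* and 0.28 for *Cfp*. In Cy3 it was between 0.027 for *Cfb* and 0.15 for *C3*. By the Pitman-Morgan test of paired variances, 9 of 9 members varied more in Cy5 (adjusted p between 5.45e-08 for *Cfb* and 0.000336 for *C1qa*). Of all 25137 probes expressed in both dyes, 59.7% did so too. With median centring 8 of 9 members did, and with no normalization between arrays 6 of 9. The share of all probes under these settings is not given here. The SD of the log2 ratio was 1.00 for *C3ar1*, 0.96 for *C4b* and 0.24 for *Cfp*, against a median of 0.18 over all expressed probes, and that of *Cfp* was 0.45 with median centring. Of all expressed probes, 98.7% had a smaller SD than *C3ar1* and 67.2% a smaller SD than *Cfp*.

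**Figure D2:**
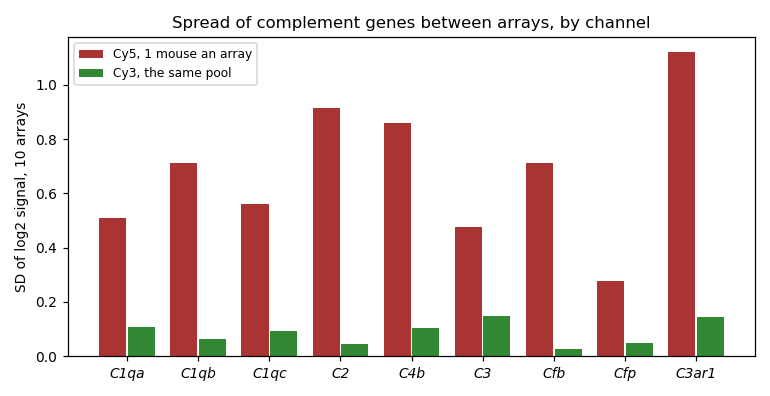
SD over 10 arrays of the normalized log2 signal of each complement gene (brighter probe for *C3*), in Cy5, which holds 1 mouse an array, and in Cy3, which holds the same pool on all. The Cy5 SD is the larger for all 9 genes, from 0.28 for *Cfp* to 1.12 for *C3ar1*.

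The relation of the members to cell type markers was measured as a slope on the mean-centred log2 ratio of a marker list, fitted with limma over all expressed probes and adjusted over all of them. A slope of 1 means that the gene doubled where the list doubled. No member is in the lists. C1q is made mainly by macrophages, however, so the C1q genes are not independent of the macrophage list. *C3ar1*, a receptor gene, may not be either. Over 10 mice, 4 of 9 members rose with the macrophage list, 4 fell and *Cfp* did not pass the test, where 48.2% of all probes passed (22.5% rose and 25.6% fell). The slope was 0.65 ± 0.049 (SE) for *C1qa*, 0.97 ± 0.059 for *C1qb*, 0.67 ± 0.050 for *C1qc* and 1.42 ± 0.052 for *C3ar1* (n = 10, limma adjusted p 6.57e-07, 1.6e-07, 6.86e-07 and 7.51e-09). It was -1.25 ± 0.10 for *C2*, -1.21 ± 0.18 for *C4b*, -0.88 ± 0.15 for *Cfb* and -0.77 ± 0.13 for *C3* (limma adjusted p 1.38e-06, 0.000134, 0.000267 and 0.000298). The slope of *Cfp* was 0.18 ± 0.090 (limma adjusted p = 0.129, and 0.0215 without mouse 2). With median centring *C3* (-0.37) and *Cfb* (-0.51) no longer passed (limma adjusted p 0.104 and 0.0626) and *Cfp* (0.37) did (0.0345). With the deposited values *Cfp* passed as well. Mice 4 to 7 lie at 1 end of every such fit.

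Within the 6 mice that lay together, the C1q genes and *C3ar1* rose with the macrophage list, and no member fell. That is 4 of 9 members, where 2.63% of all probes passed and 1.8% rose. The slopes were 0.69 ± 0.12 for *C1qa*, 1.04 ± 0.12 for *C1qb*, 0.79 ± 0.11 for *C1qc* and 1.52 ± 0.13 for *C3ar1* (n = 6, limma adjusted p 0.0236, 0.00702, 0.0106 and 0.00448). These are close to the slopes over 10 mice. The slope of *C2* was -0.79 ± 0.20 (limma adjusted p = 0.0827). *C3* (-0.07 ± 0.18), *C4b* (0.05 ± 0.16), *Cfb* (-0.05 ± 0.19) and *Cfp* (-0.22 ± 0.17) had slopes near their own errors, with limma adjusted p between 0.59 and 0.928. So *C1qa*, *C1qb*, *C1qc* and *C3ar1* kept their slope on this list in both sets of mice, whereas those of *C3*, *C4b* and *Cfb* over 10 mice came with the 4 mice that stood apart. Among the 6, the list was -0.28, 0.01 and -0.18 in mice 1, 2 and 3. It was -0.64, -1.03 and -0.81 in mice 8, 9 and 10, which shared no slide with the former. Between these sets of mice, list and slide cannot be told apart.

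The calls within 6 mice rest on few arrays. Without mouse 9, 0 of 9 members passed the limma test (5 of 9 at an unadjusted p under 0.05, as did 11% of all probes). Without mouse 10, *C1qb* and *C3ar1* passed. *C1qa* was also lost without mouse 2 (limma adjusted p = 0.079) and with log2 Cy5 in place of the ratio (slope 0.55, limma adjusted p = 0.052), where the other 3 passed. With each array centred on its median in place of loess, with the scanner's own log ratio or with the deposited values, 0 of 9 passed, and 4, 5 and 5 of 9 did at an unadjusted p under 0.05, as did 6.88%, 15.9% and 10.8% of all probes. The slopes of *C1qa*, *C1qb*, *C1qc* and *C3ar1* with these 3 scalings and without mouse 9 or 10 were 0.65 to 1.60.

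**Figure D3:**
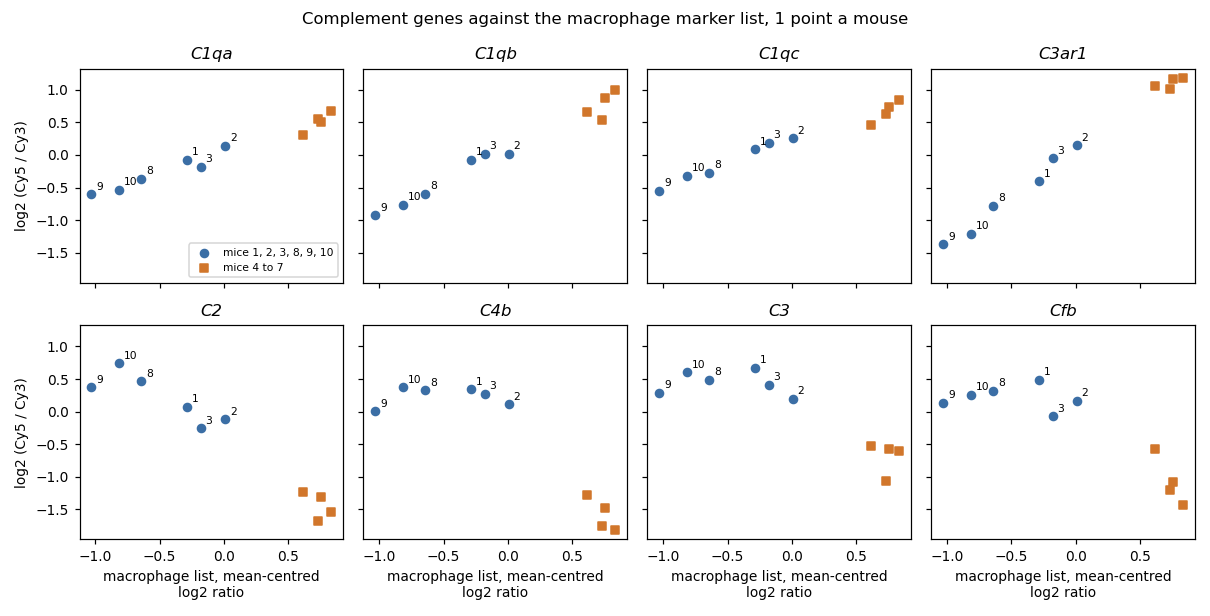
Log2 ratio of 8 complement genes (vertical) against the mean-centred log2 ratio of 14 macrophage markers (horizontal), 1 point a mouse; the 6 mice that lay together are numbered and mice 4 to 7 are squares. *C1qa*, *C1qb*, *C1qc* and *C3ar1* follow the list among the 6 mice as well, where *C4b*, *C3* and *Cfb* stay level and drop only at mice 4 to 7.

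On the adipocyte list the signs were turned. Over 10 mice, *C2*, *C3*, *C4b* and *Cfb* rose and the C1q genes, *C3ar1* and *Cfp* fell, 9 of 9 members where 51% of all probes passed (27.4% rose and 23.6% fell). The slope was 0.94 ± 0.063 for *C4b*, 0.88 ± 0.067 for *C2*, 0.69 ± 0.058 for *Cfb* and 0.59 ± 0.061 for *C3* (limma adjusted p 7.1e-08, 2.08e-07, 4.89e-07 and 3.08e-06). It was -0.93 ± 0.10 for *C3ar1*, -0.64 ± 0.078 for *C1qb* and -0.44 for *C1qa* and *C1qc*. *Cfp* was called at a slope of -0.15 ± 0.056 (limma adjusted p = 0.035), a call lost without mouse 4, 5, 7 or 8, with adjusted p between 0.0525 and 0.188. Within the 6 mice, *C1qa*, *C1qc* and *C3ar1* fell, with slopes of -1.07 ± 0.21, -1.13 ± 0.26 and -2.22 ± 0.38 (limma adjusted p 0.0296, 0.0476 and 0.0176), where 3.59% of all probes passed and 2.54% fell. *C1qb*, at -1.42 ± 0.34, missed the threshold (limma adjusted p = 0.0567). Without mouse 2 the slopes were -1.50 for *C1qa*, which no longer passed (limma adjusted p = 0.102), -2.14 for *C1qc*, -3.75 for *C3ar1* and -2.99 for *C1qb*, which then passed (limma adjusted p = 0.0112). *C1qc* was also lost without background subtraction (limma adjusted p = 0.0602) and with the slide as a random block (0.0524). *C2*, *C3*, *C4b*, *Cfb* and *Cfp* were at 1.15 ± 0.36, 0.32 ± 0.27, 0.11 ± 0.25, 0.13 ± 0.30 and 0.57 ± 0.24, and none passed. Without mouse 9, and without mouse 10, 0 of 9 passed the limma test within the rest of the 6 (6 and 5 of 9 at an unadjusted p under 0.05, as did 12% and 13.1% of all probes). With the scanner's log ratio and the deposited values 0 of 9 passed as well (5 and 5 at an unadjusted p under 0.05, as did 17.1% and 14.4% of all probes), and with log2 Cy5 only *C3ar1* did. With median centring a different set passed within the 6 mice, *C2*, *C3*, *C4b*, *Cfb* and *Cfp*, all rising, where 32.7% of all probes passed. There the slope was 0.28 for *C1qa*, 0.12 for *C1qc*, -0.08 for *C1qb* and -0.45 for *C3ar1*, so *C1qa* and *C1qc* had turned sign and none of the 4 passed.

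**Figure D4:**
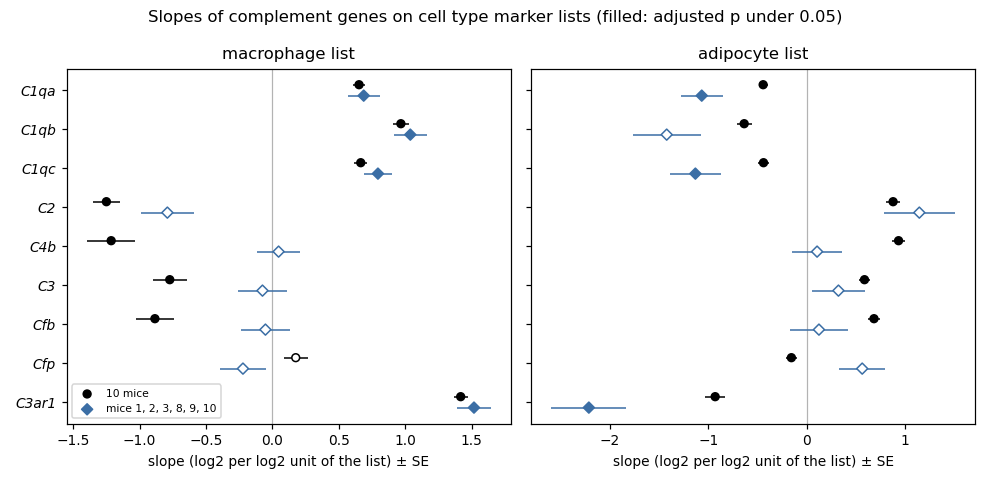
Slope ± SE of each complement gene on the macrophage list (left) and on the adipocyte list (right), over 10 mice (black circles) and over mice 1, 2, 3, 8, 9 and 10 (blue diamonds); filled symbols have a limma adjusted p under 0.05. The slopes of *C1qa*, *C1qb*, *C1qc* and *C3ar1* on the macrophage list nearly coincide in both sets, while those of *C3*, *C4b* and *Cfb* lie near 0 in the 6 mice.

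The fibroblast and mesothelium lists gave calls over 10 mice only. On the fibroblast list the C1q genes and *C3ar1* (4 of 9) rose and *C2*, *C3*, *C4b* and *Cfb* fell, where 41.7% of all probes passed (19.7% rose and 22% fell), and on the mesothelium list the signs of these 8 were turned, where 43.8% passed (23.9% rose and 19.9% fell). In the 6 mice 0 of 9 members passed the limma test on either list, and 0% of all probes did. At an unadjusted p under 0.05 the C1q genes and *C3ar1* (4 of 9) remained on the fibroblast list and *C2* (1 of 9) on the mesothelium list, against 11.2% and 7.3% of all probes.

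The members were also set against *C1qa* and against *C3* themselves. Over 10 mice *C1qb*, *C1qc* and *C3ar1* rose with *C1qa*, *C2*, *C3*, *C4b* and *Cfb* fell, and *Cfp* did not pass, where 46.8% of all probes passed (22.1% rose and 24.7% fell). In the 6 mice *C1qb* (1.39 ± 0.23), *C1qc* (1.06 ± 0.20) and *C3ar1* (2.04 ± 0.27) rose with it (n = 6, limma adjusted p 0.0305, 0.0378 and 0.0158), 3 of 8 members where 1.61% of all probes passed and 1.11% rose. *C2* was at -1.04 ± 0.31 (limma adjusted p = 0.139) and *C3*, *C4b* and *Cfb* at -0.13 ± 0.25, 0.01 ± 0.23 and 0.04 ± 0.26. Without mouse 9 or mouse 10, 0 of 8 passed the limma test (4 of 8 at an unadjusted p under 0.05 in each case, as did 10.4% and 12.3% of all probes). Without mouse 2 only *C1qb* passed and without mouse 8 only *C3ar1*. With median centring, the scanner's log ratio, the deposited values and log2 Cy5, 0 of 8 passed, and 5, 4, 3 and 4 did at an unadjusted p under 0.05, as did 32.4%, 16.3%, 7.31% and 16.5% of all probes. The 10 mice fell into separate clusters on *C3*, so the fit on *C3* was made within the 6 mice, where 0 of 8 members and 0% of all probes passed the limma test. *C4b* and *Cfp* had an unadjusted p under 0.05, as did 3.47% of all probes. With all 10 mice, 7 of 8 passed, 3 rising and 4 falling, where 46.5% of all probes did (25.1% rose and 21.4% fell).

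The genes most like each member were taken by the root mean square difference of mean-centred log2 ratios over 10 mice, among 17737 probes of expressed genes with a RefSeq transcript. For *C1qa* these were *6430548M08Rik* (0.083), *C1qc* (0.085) and *Tifa* (0.087), and for *C1qc* they were *Arap1* (0.072), *Ptpn18* (0.085) and *C1qa*. For *C1qb* they were *Gpr65*, *Ptpn6* and *Efhd2*, at 0.10 each. For *C3ar1* they were *Pld3* (0.089), *Ctss* (0.11), the gene of the lysosomal protease cathepsin S and a marker of the macrophage list, and *Lcp1* (0.11). For *C4b* they were *Clu* (0.12), the gene of the complement inhibitor clusterin, *Rarres2* (0.13), the gene of the adipokine chemerin, and *Rtn2* (0.13). For *C2* they were *Gsn*, *Tspan7* and *Podn*, at 0.15 each. For *C3* they were *Sepw1*, *Ephb4* and *Rad50*, at 0.13, 0.13 and 0.14, and for *Cfb* they were *Aldh3b2*, *Kcnj15* and *Decr1*, at 0.11 each. For *Cfp* they were *Lmx1b* (0.089), *Fap* (0.11) and *Clcn5* (0.11). These are descriptions over the same 10 arrays.

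The promoters of members that moved together were read in RefSeq sequence of the build GRCm38.p6, 250 bases before the start of the gene, which the tables hold for 5 of 9 members, *C1qb*, *C1qc*, *C3*, *Cfp* and *C3ar1*. The letters GAGGAA, a core bound by PU.1, a factor of macrophages and other myeloid cells, were searched on both strands. *C1qb* and *C1qc* hold 1 match each, 30 and 193 bases before the start, whereas *C3*, *Cfp* and *C3ar1* hold none. Of all 32851 windows of this length in the table, 23.3% hold it. The NF-kB core was found in *C3ar1* (1.41% of all windows), and the interferon-stimulated response element (2.98%) and the letters TTCNNNGAA, a core bound by STAT factors (7.02%), in none of the 5. A match is not a site, and the absence of one in this window says nothing on the factor. The *C1qb* window lies at chr4:136886201-136886450 and the *C1qc* window at chr4:136892915-136893164, both on the minus strand. They are shown because both chains moved with the macrophage list, with the GAGGAA match in capitals on the strand printed.
C1qb: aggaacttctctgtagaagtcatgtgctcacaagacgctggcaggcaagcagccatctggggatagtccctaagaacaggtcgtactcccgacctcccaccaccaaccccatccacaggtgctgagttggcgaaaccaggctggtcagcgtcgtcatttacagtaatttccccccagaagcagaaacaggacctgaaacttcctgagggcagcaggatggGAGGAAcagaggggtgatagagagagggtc
C1qc: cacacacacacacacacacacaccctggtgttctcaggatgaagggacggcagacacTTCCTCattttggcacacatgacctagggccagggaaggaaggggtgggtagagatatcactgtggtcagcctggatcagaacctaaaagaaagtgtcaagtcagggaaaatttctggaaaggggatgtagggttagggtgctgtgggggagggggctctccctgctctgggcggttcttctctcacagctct

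The rest of the complement system was followed through 40 further genes, of which 30 were expressed. Of the 30, 8 lay higher in mice 4 to 7 than in all other mice, 9 lay lower and 13 overlapped, where 17.9% of all expressed probes lay higher and 21.3% lower. Several receptors ran like *C3ar1*. *C5ar1*, the receptor of C5a, was 1.15 to 1.32 in mice 4 to 7 and -1.73 to -0.17 in the other mice. *C5ar2*, the other receptor of C5a, named *Gpr77* on the array, was 0.68 to 0.85 against -1.35 to -0.15. *Itgax* and *Itgb2*, the chains of complement receptor CR4, were 0.83 to 1.20 against -1.50 to -0.26 and 0.90 to 1.39 against -1.21 to -0.23. *Vsig4*, a macrophage receptor of C3 fragments, was 0.24 to 0.91 against -0.87 to 0.19. Over 10 mice 7 of 8 receptors rose with the macrophage list, all but *Cr2*, where 22.5% of all probes rose, and within the 6 mice 4 of 8 did, where 1.8% rose. These were *C5ar1* (1.34 ± 0.15), *C5ar2* (1.06 ± 0.15), *Itgax* (1.19 ± 0.20) and *Vsig4* (1.01 ± 0.14), with limma adjusted p of 0.006, 0.0111, 0.0217 and 0.0109. With median centring, the scanner's log ratio or the deposited values, 0% of all probes passed within the 6 mice. None of these receptor calls therefore held under those scalings. Macrophages are known to carry these receptors, so they are not independent of the list they were set against.

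Factor D, *Cfd*, which cuts factor B, had the widest range of the complement genes. It was -4.68, -4.12, -3.36 and -4.69 in mice 4, 5, 6 and 7 and 0.15, -0.70, -0.08, 0.83, 1.08 and 1.44 in mice 1, 2, 3, 8, 9 and 10. Mouse 6 was again the least low. Unlike *C3*, *C4b* and *Cfb*, *Cfd* also moved within the 6 mice, where it fell with the macrophage list (-1.88 ± 0.25, limma adjusted p = 0.0088) and rose with the adipocyte list (3.00 ± 0.40, limma adjusted p = 0.00896). The macrophage call did not hold with median centring, the scanner's log ratio or the deposited values, where 0% of all probes passed. With the scanner's log ratio 0% passed on the adipocyte list too.

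The proteases that act beside C1q did not follow it. *C1ra* was -0.22 to 0.20 in mice 4 to 7 and 0.09 to 0.42 in the others, and *C1s* was -0.39 to -0.13 against -0.47 to 0.33. In the list of start proteases and lectins 7 of 12 genes were expressed, and *Mbl1*, *Mbl2*, *Masp1*, *Fcnb* and *Colec10* were not well above background on 5 arrays. Over 10 mice *C1rl*, *C1s*, *Masp2* and *Colec11* (4 of 7) fell with the macrophage list and none rose, where 25.6% of all probes fell, and within the 6 mice 0 of 7 passed the limma test. Of the terminal components, *C8a*, *C8b* and *C9* were not expressed. *Hc*, the gene of C5, was well above background on 7 arrays, with 0.68 to 1.60 in mice 4 to 7 and -0.78 to -0.30 in the others. *C6* and *C8g* ran the other way, with -0.95 to -0.61 against -0.01 to 0.57 and -0.57 to -0.32 against 0.10 to 0.43.

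Among the inhibitors, those low in mice 4 to 7 were *Clu* (-1.92 to -1.20 against 0.16 to 0.57), *Vtn* (-0.67 to -0.35 against 0.27 to 0.39), *Serping1*, which blocks C1r and C1s (-0.76 to -0.54 against -0.21 to 0.19), *Cd59a* (-1.74 to -0.78 against 0.01 to 0.34) *Cd55* (-1.003 to -0.74 against -0.22 to 0.29) and *Susd4* (-2.22 to -1.78 against -1.60 to 1.96, the last in mouse 2). CD59 blocks the membrane pore and CD55 takes apart the C3-cutting enzymes. *Cd46*, *Cd59b* and *Cr1l* stayed between -0.22 and 0.30 in all mice. Over 10 mice 3 of 4 expressed soluble inhibitors fell with the macrophage list and none rose, and 2 of 6 membrane inhibitors fell, where 25.6% of all probes fell. In the 6 mice 0 of 4 and 0 of 6 passed the limma test. On the adipocyte list within the 6 mice *C7*, *Cfi* and *Susd4* fell, all 3 of which stood high in mouse 2 alone. Of all probes 2.54% fell there, and with the scanner's log ratio 0% passed.

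**Figure D5:**
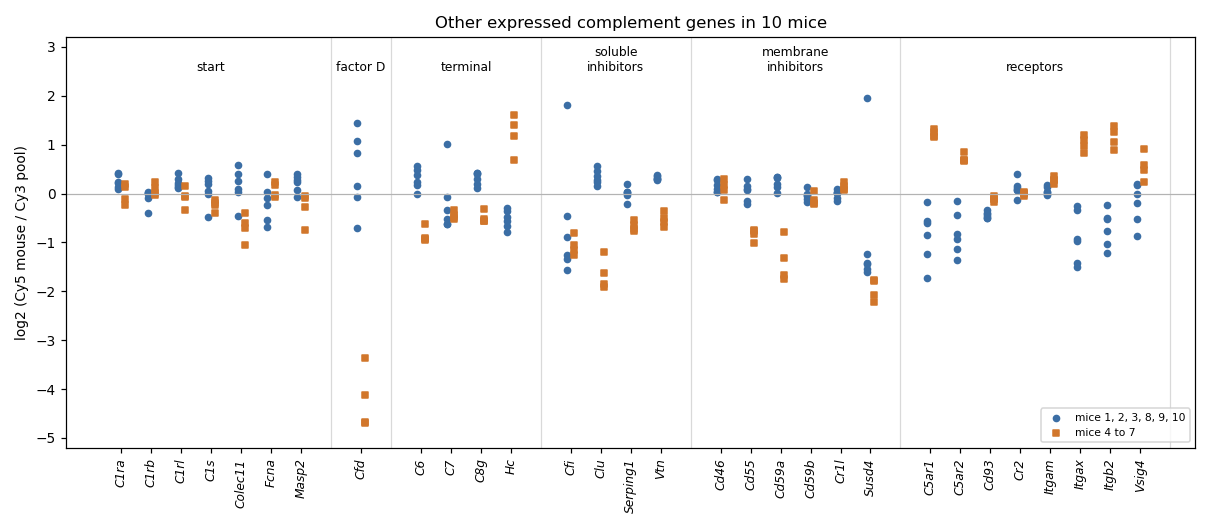
Log2 ratio of Cy5 over Cy3 of the 30 other expressed complement genes, grouped by role, 1 point a mouse, with mice 4 to 7 as squares and the other 6 as circles. The receptors *C5ar1*, *C5ar2*, *Itgax* and *Itgb2* and the terminal gene *Hc* lie high in mice 4 to 7, *Cfd* lies lowest there at -4.69 to -3.36, and *C7*, *Cfi* and *Susd4* each have 1 high point, mouse 2.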

How the data were processed

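The authors deposited 1 scanner file per array with the mean and background intensity of each spot in both dyes, as written by Agilent Feature Extraction 10.7.3.1 (the submitters' processing notes). The same deposited files hold the software's log10 ratio of Cy5 over Cy3, and a deposited table holds values found to be log2 for 30733 spots, whose normalization is not given in the sources used here. Its columns followed log2 Cy5 of their array (r 0.993 to 0.999 over spots). Both served as alternatives. The probe annotation uses mm9.

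Intensity was background-corrected (normexp, offset 50) and loess-normalized within arrays, control spots at weight 0, in R 4.3.3 using limma 3.58.1, and the separate dyes were further scaled by Aquantile. Spots marked as outliers were left out and 59305 spots averaged into 55681 probes. Expressed probes were those whose Cy5 spot passed the scanner's background test on 5 or more of the 10 arrays (27811 probes, 25137 in both dyes). A gene was read by its brightest probe. Slopes were fitted with limma and Benjamini-Hochberg adjustment at 0.05. Mice counted as clustered on a measure when a gap with 3 or more on each side reached 0.4 of its range. The fits were tested on simulated data with independent noise for each probe over 10 mice. Beyond the planted slopes these data held no probes moving together, and no fit of only the mice that lay together. They do not show how the p-values behave on these arrays. Figures were drawn in Python 3.11.15 with matplotlib 3.10.9.

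Members, marker lists and tests were chosen with earlier results of these data known. Named genes were the members, the further complement genes by list and the 3 genes most like each member. The slope p-values rest on the spread between the mice of each fit, all 10 or a subset, each measured on 1 array. Over all 10 they treat mice that fell into separate sets as independent points. Those of the variance test compare Cy5 with Cy3 over the 10 arrays. Alternatives were other background corrections, scalings, filters, value sources, probe rules, the slide as a block and subsets of mice. A further complement gene is not reported here.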

Additional observations from a re-analysis of the deposited data

Results flagged for a closer look

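No member was flagged by the rule that follows. Over the 10 mice, 40 probes or genes of the complement system were tested. Of these, 4 had a highest or lowest mouse whose gap to the next was over Dixon's 95% critical value. Chance alone gives about 1 in 20 where values are independent and normally spread. The share of all probes past this rule was not computed, so the count cannot be read as particular to complement. Mouse 2 stood apart on the second principal component of all expressed probes (8.8% of the variance), at -43.9 against -0.47 to 10.1 in the other mice. The gap was 0.766 of the range for *Susd4*, 0.672 for *Cfi* and 0.658 for *C7*, in each case with mouse 2 as the highest. *Susd4*, a membrane inhibitor gene, was 1.96 in mouse 2 and -2.22 to -1.24 in the other 9. *Cfi*, the gene of the protease that cuts C3b and C4b, was 1.80 in mouse 2 and -1.56 to -0.46 in the others, and *C7* was 1.01 against -0.62 to -0.06. The *Cfi* probe was well above background on 8 arrays. For *C1rb* the gap was 0.494, with mouse 3 lowest at -0.41.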

How the results depend on the processing

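The members varying more in Cy5 than in Cy3 were 9 of 9, also without any 1 mouse, 8 with median centring and 6 with no normalization between arrays, and 0 of 9 differed between slides under the 6 alternatives tried. Leaving out 1 mouse at a time gave 8 to 9 members on the macrophage list, 8 to 9 on the fibroblast list, 8 on the mesothelium list, 8 to 9 on the adipocyte list, 7 to 8 on *C1qa* and 0 on *C3*. With only the 6 mice that lay together the counts were 4, 0, 0, 3 and 3 on the macrophage, fibroblast, mesothelium and adipocyte lists and *C1qa*. There the slope turned sign for *C4b* (0.0467) and *Cfp* (-0.22) on the macrophage list, for *C3* (0.0248), *C4b* (0.26), *Cfb* (0.64) and *Cfp* (-0.79) on the fibroblast list, for *Cfp* on the mesothelium (0.064) and adipocyte (0.57) lists, and for *C4b* (0.013), *Cfb* (0.0373) and *Cfp* (-0.37) on *C1qa*, none of them called. Median centring put the typical expressed probe at 0.32 on the log2 scale, against 0.01 with loess. With it the members called were 5 on the fibroblast list (5 rising, 0 falling), 5 on the mesothelium list (4 and 1), 7 on the macrophage list (5 and 2), 5 on *C1qa* (4 and 1) and 4 on *C3*, and *C2*, *C3* and *Cfb* overlapped between mice 4 to 7 and the rest. The shares of all probes called under median centring and without 1 mouse are not given here for the counts above. Those counts can therefore not be read as particular to the members. With all 10 mice, chosen after the data were seen, 7 were called on *C3*. Within the 6 mice, with settings also chosen after the data were seen, the macrophage count of 4 was 0 with median centring, the scanner's log ratio and the deposited values, 3 with log2 Cy5, and 0 to 4 without 1 mouse. The adipocyte count of 3 was 5 with median centring, 0 with the scanner's log ratio and the deposited values, 1 with log2 Cy5 and 0 to 4 without 1 mouse. Under median centring 32.7% of all probes passed there, against 3.59% in the main fit. The *C1qa* count of 3 was 0 under those 4 settings and 0 to 3 without 1 mouse. The cause of these changes was not tested. The slide as a random block lost no call over 10 mice. Within the 6 it added *C2* on the macrophage list and lost *C1qc* on the adipocyte list. No paired analysis was possible because there is 1 group of mice. The number of arrays, 10, and the margin of signal over background limit the precision.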
